A study of Mus musculus with 96 samples.

Results

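The difference in gene expression between hindbrain and forebrain was compared between 2 inbred mouse strains, C57BL/6J (B6) and NOD/ShiLtJ (NOD), the non-obese diabetic strain. For each of 8 B6 and 8 NOD adult male mice, the forebrain log2 value of a transcript cluster (the set of array probes assigned to 1 transcript locus) was subtracted from the hindbrain value of the same mouse. The mean of the 8 NOD differences minus the mean of the 8 B6 differences is the strain by region interaction, and it is the same number as the strain difference in hindbrain minus the strain difference in forebrain. These values came from 32 of the 96 arrays of the series, the forebrain and hindbrain arrays of the 1.1ST format. The 32 arrays of the 1.0ST format, which carried the same RNA, gave a technical repeat with no new animals, and 16 whole brain arrays were used for comparison.

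In each strain, 4 mice had been injected with clozapine, an atypical antipsychotic, and 4 with vehicle, and all were killed 3 hours later. The mice were housed singly. One hemisphere was kept intact and is called whole brain. From the other the hindbrain was lifted out with curved forceps placed at the natural border of the regions, leaving the forebrain. The cerebellum had been removed while the olfactory bulbs stayed attached. The arrays report log2 intensities, which can be compared between samples for a cluster but not between clusters. The median log2 value of an array ranged from 6.28 to 6.58 in the 1.1ST format and from 8.14 to 8.23 in the 1.0ST format.

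The mammalian brain is patterned along its length by transcription factors that persist in adult neurons. Tbr1 and Emx1 mark neurons of the cortex, Hox genes mark the medulla and pons, and the thalamus, which lies between them as the relay of sensory signals to the cortex, is marked by Tcf7l2 and Prkcd. A dissection by hand divides such areas between the pieces. In both strains, 21 of 22 thalamic markers and 15 of 20 hypothalamic markers were higher in the piece called hindbrain. Hindbrain here means that dissected piece, not the pons and medulla alone. In bulk tissue, fewer cells of a type and less RNA per cell cannot be told apart, and a changed share of thalamus in a piece and a changed level in thalamic neurons are therefore 1 measurement here.

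The region difference was alike in both strains for most transcripts. Across the 28310 clusters, the B6 and NOD differences had a Pearson correlation of 0.926, given as a description because clusters share arrays. Hindbrain and forebrain differed at an FDR below 0.05 for 14608 clusters (51.6%) in B6 and for 14233 (50.3%) in NOD, and 11000 clusters were called in both with the same sign. The interaction passed the same FDR for 289 clusters, 1.02% of those tested. Of these, 183 (0.646% of all clusters) had a lower hindbrain minus forebrain value in NOD and 106 (0.374%) a higher one. The called clusters hold 280 distinct sets of values, because some near-identical clusters repeat each other, and carry 189 gene names. Their absolute interactions ran from 0.25 to 1.80 on the log2 scale with a median of 0.52, and 24 were above 1. The 8 NOD differences did not overlap the 8 B6 differences in 112 of the called clusters, against 120 (0.424%) of all clusters.

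**Figure D1:**
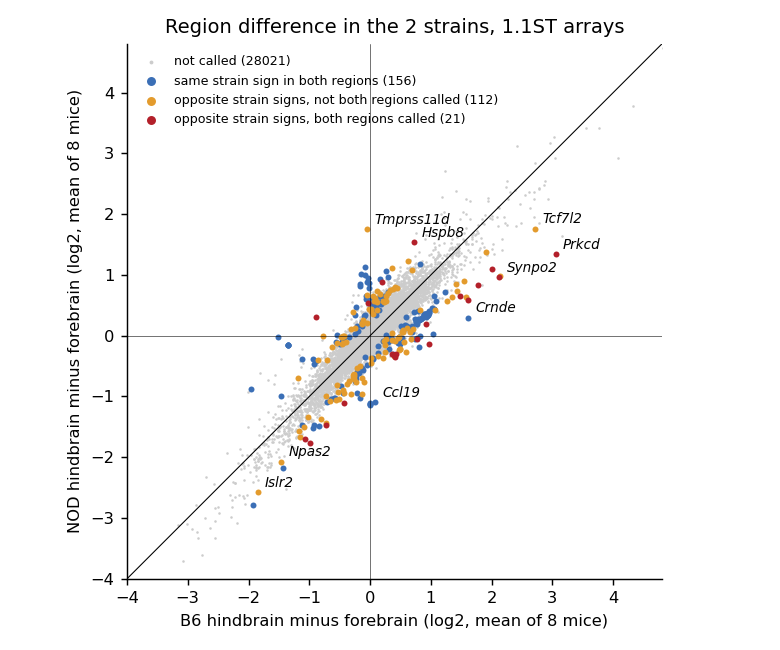
Mean hindbrain minus forebrain log2 difference in B6 (x axis) and NOD (y axis), 1 point per transcript cluster and 8 mice per strain, with the line of equality. Most of the 28310 clusters lie along the line, Prkcd, Synpo2 and Crnde lie below it and Tmprss11d and Hspb8 above it.

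The overall distance between the regions did not differ detectably between the strains. The distance between the arrays of a mouse, 1 minus their Pearson correlation times 1000, was 15.25 ± 3.28 in B6 and 16.08 ± 2.38 in NOD (SD, n = 8), and the groups overlapped almost fully (11.6 to 19.5 and 13.4 to 19.9). The difference of 0.83 was not significant (two-sided exact permutation test, 12870 permutations, p = 0.561). Among the called clusters, the region difference was itself called in both strains with the same sign for 157, being larger in NOD for 80 and larger in B6 for 77. It was called only in B6 for 54 and only in NOD for 48, and it was called in both strains with opposite sign for 30.

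The called clusters were then divided by the sign of the strain difference in each region. For 133 clusters, NOD exceeded B6 in 1 region and lay below it in the other, and for 156 clusters the strain difference had the same sign in both regions and changed only in size. Opposite signs alone say little where a difference is near 0, and 33.3% of all 28310 clusters have them. The strain difference was called in both regions, with opposite signs, for 21 clusters, where the calls in forebrain and in hindbrain cover 10.8% and 14.1% of all clusters. NOD was lower in hindbrain and higher in forebrain for 17 of the 21, and the reverse held for 4. The 21 clusters carry 15 gene names, and several of the 17 belong to the same gene, Ptpn3, so these counts are not counts of separate genes. Among the 156 clusters of equal sign, the strain difference was larger in hindbrain for 115 and larger in forebrain for 41, and 102 were called in both regions.

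**Figure D2:**
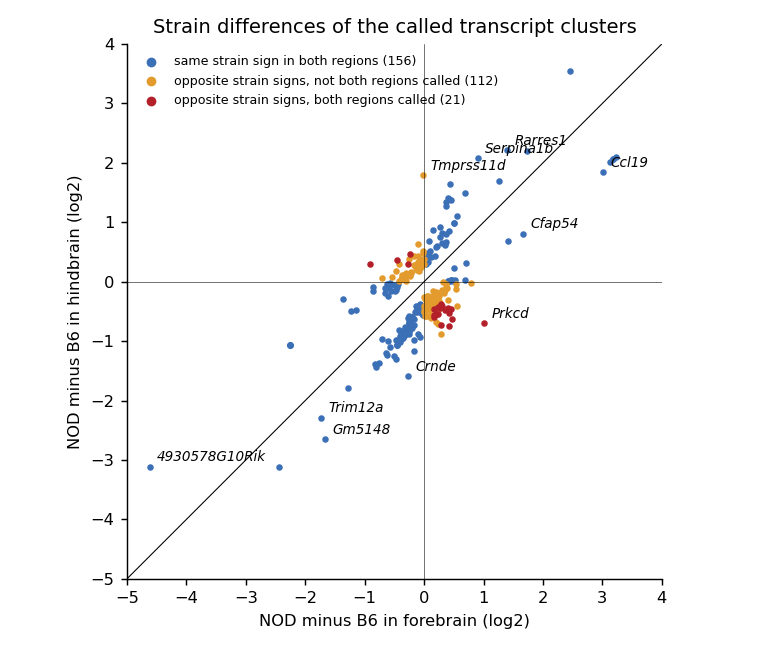
NOD minus B6 log2 difference in forebrain (x axis) and in hindbrain (y axis) for the 289 called clusters, with the line of equality. The 21 red points, with both regions called and opposite signs, lie mostly in the lower right quadrant, where NOD is higher in forebrain and lower in hindbrain, and Prkcd lies furthest out.

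The whole brain arrays were not used to define the classes, but the intact hemisphere of the same mice holds both regions. Strain differences of equal sign are averaged in it, while those of opposite sign offset each other. A contrast between the classes therefore follows from their definition. The regional differences were also smaller in the class of opposite sign. Their median absolute sizes were 0.17 in forebrain and 0.33 in hindbrain, against 0.40 and 0.81 in the class of equal sign. The strain difference in whole brain was called for 137 of the 156 clusters of equal sign (87.8%) and for 17 of the 133 clusters of opposite sign (12.8%), against 9.5% of all clusters. Its median absolute size was 0.50 in the first class and 0.11 in the second. The whole brain value lay between the forebrain and hindbrain values for 285 of the 289 called clusters, against 40.2% of all clusters, where the gap between the regional values is mostly small. Strain differences of opposite sign in the pieces were thus mostly small in the intact hemisphere. By least squares over the 11000 clusters called between the regions in both strains, a whole brain array lay 19.1% to 56.3% of the way from the forebrain to the hindbrain mean of the other mice of its strain in 15 mice, and 70.8% in NOD mouse DD656. Without the array of that mouse, 135 of the 156 and 20 of the 133 clusters were called in whole brain, and 279 of the 289 whole brain values lay between the regional ones.

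Genes known from the thalamus were among the clusters of opposite sign, which carry 109 gene names. The marker lists were written with earlier results of these data known, so counts from them are a description. Of 22 genes on a list of thalamic and habenular markers, all measured, 8 had a lower hindbrain minus forebrain difference in NOD (0.646% of all clusters) and none a higher one. They were Prkcd, Synpo2, Rgs16, Tcf7l2, Plekhg1, Tnnt1, Lef1 and Ntng1. The median interaction of the list was -0.37, against 0.014 over all clusters, and 19 of its 22 genes were below 0, against 44.3% of all clusters. The median NOD minus B6 difference of the list was 0.21 in forebrain, -0.25 in hindbrain and 0.002 in whole brain. By region, 6 of the 22 genes were called higher in NOD forebrain, against 4.77% of all clusters, and 8 were called lower in NOD hindbrain, against 6.69%.

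Prkcd (14:30595353-30626414, GRCm38.p6) encodes protein kinase C delta, which relay neurons of the thalamus express strongly. Its hindbrain minus forebrain difference had a low, median and high of 2.41, 2.87 and 3.67 in the 8 B6 mice and of 0.66, 1.20 and 2.07 in the 8 NOD mice. No NOD mouse reached the lowest B6 mouse. The interaction was -1.71 (SE 0.23, FDR = 0.000322). In forebrain, NOD was higher by 1.01 (SE 0.24, FDR = 0.00562). In hindbrain, NOD lay below B6 with a difference of -0.70 (SE 0.15, FDR = 0.00264). In whole brain the strain difference was -0.34 and was not called (FDR = 0.317), with ranges of 9.22 to 10.25 in B6 and 8.52 to 10.40 in NOD.

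Synpo2 (3:123076519-123236168), which encodes an actin-binding protein, had hindbrain minus forebrain differences from 1.48 to 2.84 in B6 (median 2.12) and from 0.39 to 1.36 in NOD (median 1.03). Rgs16 (1:153740353-153745468), a regulator of G protein signalling, ran from 1.07 to 2.06 in B6 (median 1.62) and from -0.21 to 0.96 in NOD (median 0.75). Plekhg1 (10:3740251-3967303), which encodes a guanine nucleotide exchange factor, ran from 1.56 to 2.56 in B6 (median 2.01) and from 0.58 to 1.45 in NOD (median 1.19). It has 2 clusters, of which only this 1 was called. The strains did not overlap for any of these 3 genes. Their interactions were -1.16 (SE 0.18), -1.02 (SE 0.17) and -0.91 (SE 0.16), and each gene was called higher in NOD forebrain and lower in NOD hindbrain, with whole brain differences of -0.17, -0.18 and -0.13 that were not called.

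Tcf7l2 and Lef1 both encode transcription factors at the end of the Wnt pathway. Their interactions were -0.96 (SE 0.23, FDR = 0.0484) and -0.71 (SE 0.14, FDR = 0.0138). Ntng1, which encodes the axonal adhesion protein netrin-G1, had an interaction of -0.56 (SE 0.11), and Tnnt1, slow skeletal troponin T, one of -0.82 (SE 0.16). Not every marker of the list moved in this way. Slc17a6, the glutamate transporter of subcortical neurons, had an interaction of -0.24 (SE 0.20), Zic1 of -0.32 (SE 0.25), Gbx2 of -0.29 (SE 0.12) and Cbln1 of 0.29 (SE 0.26), none of them called. Outside the list, Ptpn3, a protein tyrosine phosphatase chosen here after its values were seen, is represented by 12 clusters, of which 10 were called with interactions from -0.77 to -0.51 and opposite strain signs in each of the 10.

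**Figure D3:**
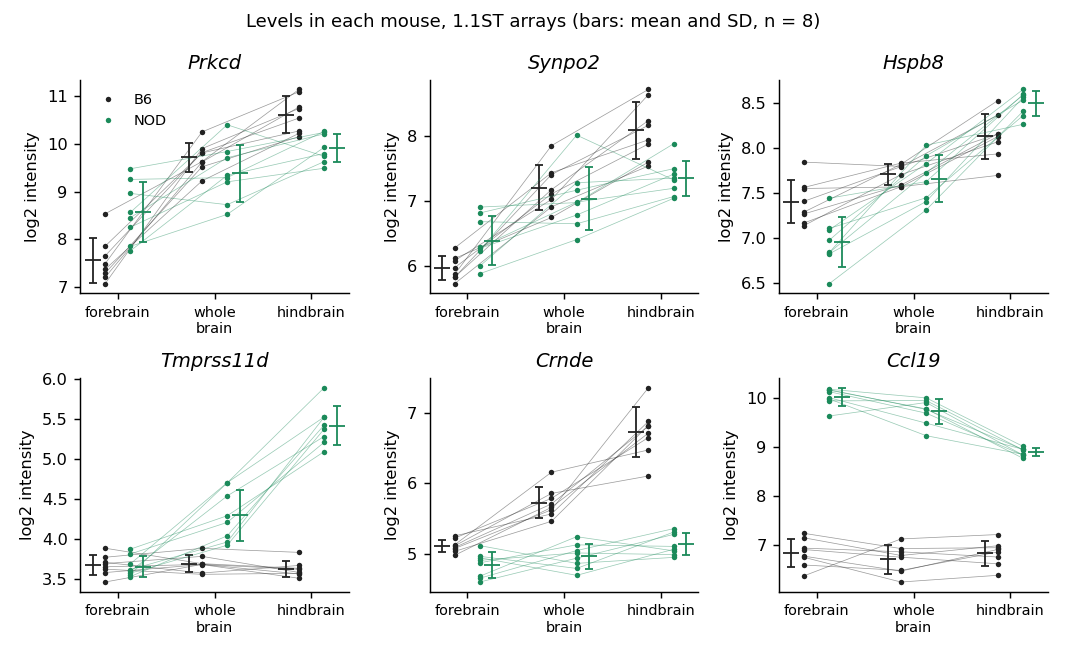
Log2 intensity of 6 genes in the forebrain, whole brain and hindbrain array of each mouse (points, with thin lines joining the arrays of a mouse) and the mean and SD of the 8 mice per strain (bars). The strains change order between forebrain and hindbrain for Prkcd, Synpo2 and Hspb8, separate mainly in hindbrain for Tmprss11d and Crnde, and lie apart everywhere for Ccl19.

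Marker lists of other brain areas were measured in the same mice. The mean hindbrain minus forebrain difference of the thalamus list ran from 1.13 to 1.67 in B6 (median 1.39) and from 0.51 to 1.18 in NOD (median 0.95), so that the groups met only at their edges. Of 18 markers of striatal projection neurons, none was called. All 18 interactions were negative with a median of -0.44, where 44.3% of all clusters were negative. Genes of a list share the dissected pieces, so their signs are not independent. The striatal list mean ran from -1.82 to -0.17 in B6 and from -1.70 to -1.10 in NOD. For 28 markers of cortical and hippocampal neurons the median was -0.23, and Rorb, a nuclear receptor of cortical layer 4 and thalamus, and Wfs1, which encodes the endoplasmic reticulum protein wolframin, were called lower. Over all clusters, 0.646% were called lower and 0.374% higher. Of 20 Hox genes, Hoxa4 was called higher (0.30, SE 0.07), and 19 had positive interactions, against 55.7% of all clusters. The median of the Hox list was 0.30. On the 1.0ST arrays the medians of the thalamic, striatal, cortical and Hox lists were -0.30, -0.35, -0.09 and 0.08.

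No list of macroglia or vessels had a called gene, where 1.02% of all clusters were called. At that share, lists of 9 to 27 genes would hold few or none, so a lack of calls says little. None of 27 genes of oligodendrocytes and myelin was called (median interaction -0.09, 26 of 27 negative), none of 9 of oligodendrocyte precursors (-0.11, all 9 negative on both formats), none of 16 of astrocytes (-0.01) and none of 18 of endothelial and mural cells (-0.03). None of 27 brainstem transcription factors was called (-0.01). Olfactory bulb markers had a median of 0.32 (17 genes, none called) and a median strain difference of -0.42 in forebrain, where 2 were called lower in NOD and 1 higher. Forebrain strain differences in either direction were called for 10.8% of all clusters. Cerebellar markers, which should be rare because the cerebellum was removed, had a median interaction of 0.29 (16 genes, none called). Their list mean lay between 2.21 and 2.55 in 1 B6 and 3 NOD mice and between 0.35 and 1.17 in the others. All 4 mice with the high values had been given clozapine. Without these 4 mice, 239 clusters were called, the same 8 thalamic genes among them, and the thalamus median was -0.55.

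**Figure D4:**
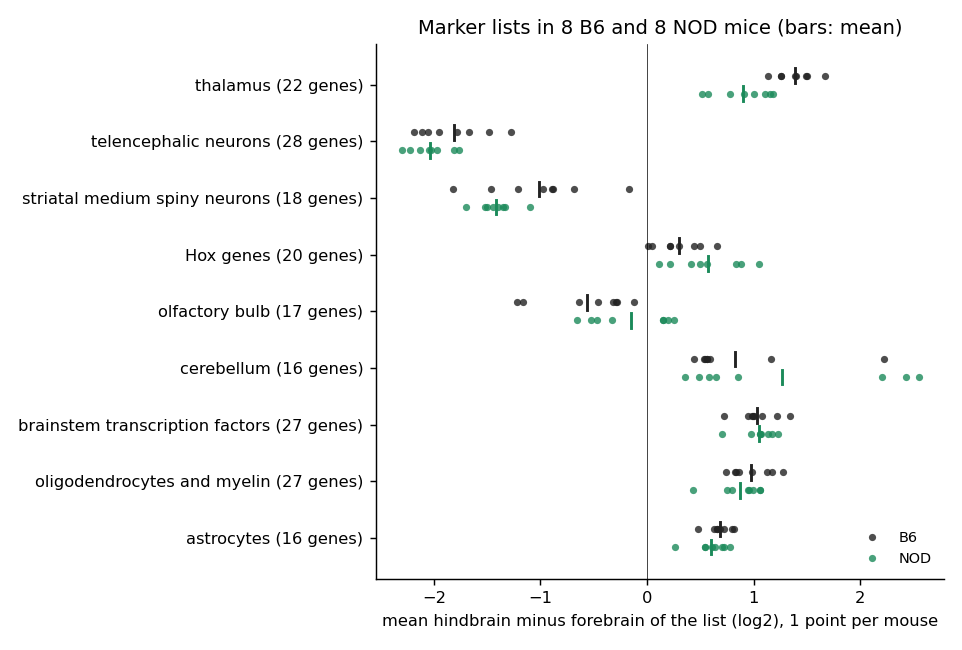
Mean hindbrain minus forebrain log2 difference of 9 marker lists, 1 point per mouse, with the mean of each strain as a bar. For the thalamus list the NOD mice lie from 0.51 to 1.18 and the B6 mice from 1.13 to 1.67, with overlap at the edge, whereas the brainstem, oligodendrocyte and astrocyte lists overlap, and 4 mice stand apart for the cerebellum list.

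When the list mean of the thalamus in each mouse was added to the model as a covariate, 65 clusters were called, of which 46 were among the 289, namely 18 of the 133 clusters of opposite sign and 28 of the 156 of equal sign. All 289 kept their direction, and their median absolute interaction was 0.44, against 0.52 without the covariate. The covariate differs between the strains and holds some of the called genes, so it also takes up part of any strain effect and widens the errors. With the list of cortical and hippocampal neurons instead, 222 were called (181 shared), and with both lists 17 (15 shared). How the cut between the pieces ran in each mouse was not measured, and its part in these results was not tested.

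A smaller set of genes of opposite sign ran the other way, higher in NOD hindbrain and lower in NOD forebrain. Hspb8 (5:116408491-116422864), a small heat shock protein, had a hindbrain minus forebrain difference from 0.31 to 1.23 in B6 (median 0.73) and from 1.15 to 1.91 in NOD (median 1.55), overlapping only at the edge. Its interaction was 0.81 (SE 0.13, FDR = 0.00293), from a strain difference of -0.45 in forebrain and 0.36 in hindbrain, and it stayed called with the thalamus covariate (1.16). Uts2 (4:150997097-151001810), which encodes the vasoactive peptide urotensin 2 of brainstem and spinal motor neurons, ran from -0.04 to 0.49 in B6 and from 0.68 to 1.19 in NOD, without overlap. Its interaction of 0.70 (SE 0.09) was 0.17 on the 1.0ST arrays and was not called there (FDR = 0.681).

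Among genes of opposite sign with both regions called and lower in NOD hindbrain were also Tafa4, a chemokine-like peptide of neurons (-0.94, SE 0.20), Gucy2c, the guanylate cyclase C receptor that midbrain dopamine neurons carry (-0.72, SE 0.14), and Mup6 (-0.84, SE 0.15), a member of the major urinary protein family, whose near-identical copies make its value uncertain. The strains overlapped for each of the 3. Six3, a forebrain patterning factor, had an interaction of -0.58 (SE 0.14, FDR = 0.0482), and Gabra4, the alpha 4 subunit of the GABA-A receptor, one of -0.53 (SE 0.12). Gabra4 was the 1 gene called among 13 subunits, where 1.02% of all clusters were called. Prkch, protein kinase C eta, ran from 0.14 to 1.07 in B6 and from -0.88 to 0.04 in NOD, so that it was higher in hindbrain in all B6 mice and not in most NOD mice (interaction -0.87, SE 0.15). Of its 2 clusters, only this 1 was called.

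The interaction with the largest absolute value belonged to a gene that differed between the strains in hindbrain alone. Tmprss11d (5:86302854-86373387) encodes a membrane serine protease known from airway epithelium. In forebrain its level was 3.47 to 3.89 in B6 and 3.53 to 3.88 in NOD, both near the low end of the scale. In hindbrain it was 3.51 to 3.84 in B6 (median 3.61) and 5.09 to 5.89 in NOD (median 5.40). All 8 NOD hindbrains lay above every other forebrain or hindbrain array. The interaction was 1.80 (SE 0.12, FDR = 7.25e-08), and whole brain differed by 0.60 (FDR = 0.000401). On the 1.0ST arrays it was 1.32 (FDR = 1.72e-06). The call held in each alternative that kept this cluster, with both marker lists as covariates (1.52) and in clozapine or vehicle mice alone. An alternative limited to clusters with a mean level above 5 left it out. The same limit left out Uts2, Gucy2c, Mup6, Pkd2l1, Trpm8 and Trim12a. The forebrain difference of -0.02 places Tmprss11d among the opposite signs only by name.

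Other genes were lower in NOD by more in hindbrain than in forebrain. Crnde (8:92326031-92356120), a long noncoding RNA, ran from 0.99 to 2.28 in B6 (median 1.68) and from -0.17 to 0.70 in NOD (median 0.29) in its hindbrain minus forebrain difference. Its interaction was -1.32 (SE 0.15), from strain differences of -0.27 in forebrain and -1.59 in hindbrain. Pkd2l1 (19:44147637-44248328), the channel of neurons that contact the cerebrospinal fluid, was raised in B6 hindbrain by 0.85 to 1.63, while NOD ran from -0.60 to 0.27. The NOD hindbrain level of Pkd2l1, 4.34 to 4.53, was within its NOD forebrain range of 4.19 to 4.94, and the interaction was -1.01 (SE 0.12). Gm5148, a predicted gene, was higher in B6 hindbrain than forebrain in all 8 mice (0.50 to 1.09), and its NOD levels of 3.90 to 4.93 lay below all B6 levels in both regions (interaction -0.98, SE 0.10).

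Some genes with a large strain difference everywhere changed only its size. Ccl19 (4:42754525-42756365), a chemokine that guides lymphocytes and dendritic cells, was 9.62 to 10.17 in NOD forebrain and 8.76 to 9.01 in NOD hindbrain, but 6.37 to 7.23 and 6.38 to 7.21 in B6. The strain difference was 3.18 in forebrain, 2.06 in hindbrain and 3.02 in whole brain, and the interaction was -1.12 (SE 0.14). The 5 clusters that carry the symbol had interactions from -1.18 to -1.11, and since the genome holds near-identical copies of this gene their source is uncertain. Cfap54 (10:92775609-93083487), a protein of motile cilia, was likewise higher in NOD by 1.67 in forebrain and by 0.81 in hindbrain. Fcrls, an Fc receptor-like gene of microglia, was lower in NOD by -1.28 in forebrain and -1.79 in hindbrain. It was the 1 gene called of 16 microglial markers, where 1.02% of all clusters were called.

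Of 26 genes on a list of strain differences known or seen earlier in these data, 5 had a called interaction, against 1.02% of all clusters. Rarres1, a retinoic acid responder, was higher in NOD by 1.40 in forebrain and by 2.21 in hindbrain. Pla2g4e, a cytosolic phospholipase, was higher by 1.74 and 2.20, and Abhd1, a hydrolase, by 1.26 and 1.69. Trim12a, of a family of antiviral ubiquitin ligases, was near the low end of the scale in both NOD regions (3.56 to 3.91), and its interaction of -0.56 (SE 0.10) reflected a B6 level of 5.16 to 5.92 in forebrain and 5.66 to 6.26 in hindbrain. The fifth was Ccl19. Ifih1, which encodes the sensor of double-stranded RNA MDA5, was lower in NOD by -0.26 in forebrain and -0.68 in hindbrain. Trim12a and Ifih1 were the 2 called of 24 interferon-induced genes, against 1.02% of all clusters. The median interaction of these 24 genes was 0.007.

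Among named genes whose strains did not overlap, the positive interactions were led, after Tmprss11d and Uts2, by Col12a1 (0.66, SE 0.11), a fibril-associated collagen, Pctp (0.60, SE 0.09), the phosphatidylcholine transfer protein, Trpm8 (0.60, SE 0.09), the cold-activated ion channel, and Wdhd1 (0.59, SE 0.09), a DNA replication factor. That lack of overlap was a condition for naming these 4. They differed in where the strains separated. Of the dissected pieces, the strain difference was called in hindbrain for Trpm8 and Pctp, higher in NOD (0.68 and 0.43), and in forebrain for Wdhd1 and Col12a1, lower in NOD (-0.63 and -0.48). In whole brain it was called for Trpm8 (0.27), Wdhd1 (-0.46) and Col12a1 (-0.23). On the 1.0ST arrays the interactions of Col12a1, Pctp, Trpm8 and Wdhd1 were 0.35, 0.31, 0.23 and 0.27, and none was called (FDR = 0.138, 0.105, 0.722 and 0.238). Spag5, a mitotic spindle protein, and Frmd3 were called higher in NOD hindbrain (0.52 and 0.48), with forebrain differences of -0.02 each, Gdap10 was 0.25 higher there, and Abracl was called lower in NOD forebrain (-0.32). Spag5 and Frmd3 were called on the 1.0ST arrays as well (0.36 and 0.44), and Gdap10 and Abracl were not.

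Genes of cholesterol synthesis showed small positive interactions. Sqle, Cyp51 and Idi1 are enzymes of the pathway and Stard4 carries sterols between membranes, and these 4 were called, with interactions of 0.30 (SE 0.06), 0.38 (SE 0.08), 0.34 (SE 0.08) and 0.40 (SE 0.09). Cyp51 had a hindbrain minus forebrain difference from 0.16 to 0.65 in B6 (median 0.39) and from 0.44 to 0.94 in NOD (median 0.78), which overlapped. A list of 25 sterol genes was written after these values were seen, so its counts are a description. Of its 20 measured members, 4 were called higher (0.374% of all clusters), none lower, and all 20 interactions were positive with a median of 0.18, while 55.7% of all clusters were positive. On the 1.0ST arrays 17 of the 20 were positive, with a median of 0.09, and none of the 4 was called.

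Slit2, a secreted axon guidance ligand, and the microRNA gene Mir218-2 were also looked at after their values were seen, because the related Slit2 and Slit3 genes each hold a copy of the same microRNA. Mir218-1 lies within Slit2 and Mir218-2 within Slit3 in the RefSeq annotation of GRCm38.p6, at 5:48223966-48223986 and 11:35616840-35616860 for the mature part, both on the plus strand. Both loci give the same mature sequence of 21 bases, shown with its seed, bases 2 to 8, in capitals.
miR-218-5p: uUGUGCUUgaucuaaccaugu
The array clusters measure transcripts of each locus, not the mature microRNA. Slit2 had an interaction of -0.41 (SE 0.09, FDR = 0.019), with NOD forebrains at 9.22 to 9.36 all above the B6 forebrains at 8.68 to 9.02, and a hindbrain strain difference of 0.004. The cluster of Mir218-2 had an interaction of 0.43 (SE 0.10, FDR = 0.0443), and that of its host Slit3 one of 0.01 (SE 0.15). Mir218-1 had -0.22 (SE 0.13) and was not called.

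The repeat on the 1.0ST arrays gave fewer calls in the same direction. There 137 clusters were called (0.484%), 42 higher and 95 lower in NOD, and 103 were called on both formats, 35.6% of the 1.1ST calls and 75.2% of the 1.0ST calls, all with the same sign. Of the 289 clusters, 288 had the same sign on both, against 66.9% of all clusters. The median absolute interaction of the 289 was 0.39 on the 1.0ST arrays, against 0.52 on the 1.1ST arrays, by whose values the 289 had been chosen. The reason for the smaller size was not tested. All 21 clusters of opposite sign with both regions called had opposite signs again, though the forebrain difference of Uts2 was only -0.004 on that format. The interaction was called again for 14 of the 21. With both regional strain differences called as well, 11 of the 21 remained. Of the 8 thalamic genes, Prkcd (-1.50), Synpo2 (-0.97), Rgs16 (-0.82) and Plekhg1 (-0.78) were called there too, whereas Tcf7l2 (-0.69), Lef1 (-0.45), Ntng1 (-0.45) and Tnnt1 (-0.31) were not.

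**Figure D5:**
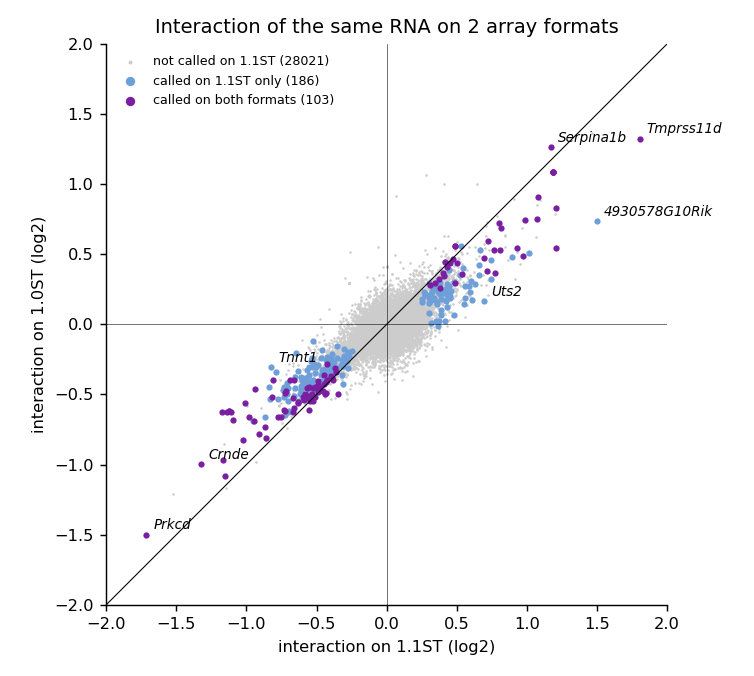
Strain by region interaction of each cluster on the 1.1ST (x axis) and 1.0ST (y axis) arrays of the same RNA, in log2 units, with the line of equality. The clusters called on both formats follow the line at a smaller size on 1.0ST, as for Tmprss11d with 1.80 and 1.32, and 186 clusters were called on 1.1ST only.

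Treatment did not detectably change the strain dependence. No cluster was called for the interaction of strain, region and treatment in the limma fit (0%), with either adjustment or on either format, while 1138 of the 28310 clusters had an unadjusted p below 0.05. Prkcd had an interaction of -2.06 in vehicle mice and -1.37 in clozapine mice, and Tmprss11d of 1.88 and 1.73. With 4 mice per strain, 96 clusters were called in vehicle mice and 15 in clozapine mice, and the difference between these counts was not tested. The 4 mice with high cerebellar markers were all clozapine mice, so treatment and that signal overlap in these comparisons.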

How the data were processed

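RNA of forebrain, hindbrain and whole brain was measured on Affymetrix Mouse Gene 1.0ST and 1.1ST arrays. The authors deposited log2 intensities for 28310 transcript clusters, made by RMA (background correction, sketch quantile normalization, median polish) with Affymetrix Expression Console 1.1. Strain, region, treatment and mouse were read from the titles and characteristics. No array batch or hemisphere is given there, and the first model holds neither batch nor surrogate variables.

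The per-mouse difference, hindbrain minus forebrain, was fitted with limma 3.58.1 in R 4.3.3, with statmod 1.5.0 for random blocks. P-values are two-sided, SEs are from limma, and FDRs were computed over all clusters by the study's formula, with calls below 0.05. Forebrain and hindbrain are paired because they come from the same mouse, and their deviations from the group means had a mean correlation of 0.121 within mice and -0.016 between mice. With 16 mice, their number limits the precision. The fits were tested on simulated data.

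Of the clusters, 21207 carry 1 gene symbol, 1867 several and 5236 none, from the platform annotation, and 99 whose symbol differed between formats were not named. Positions are from GRCm38.p6. A gene with several clusters is represented by its brightest one on average. Genes were named as the 10 with the largest positive and the 10 with the largest negative called interaction among those without overlap of the strains and with the same sign on 1.0ST, up to 6 of opposite sign with both regions called in each direction, and up to 3 called members in each direction of each of 26 lists, with further members that clarify a list. The members and lists were chosen with earlier results of these data known. Genes chosen after their values were seen are named as such in the text. The alternatives are given in the closing section.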

Additional observations from a re-analysis of the deposited data

Results flagged for a closer look

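The strain difference differed between hindbrain and forebrain for 289 clusters by the interaction test itself. Of 138 groups of 8 mice, 12 (8.7%) held a mouse far from the other 7 by Dixon's ratio, where chance gives about 1 in 20. Among hindbrain minus forebrain differences of genes, NOD mouse DD659 had 0.90 for Col12a1 against 0.14 to 0.50 in the other NOD mice, and NOD mouse DD676 had 0.76 for Wdhd1 (0.15 to 0.36) and 1.12 for Frmd3 (0.37 to 0.66). For Pkd2l1, B6 mouse BB703 had 1.63 against 0.85 to 1.15, and NOD mouse DD678 had -0.60 against -0.07 to 0.27. B6 mouse BB687 had 0.21 for Mup6 (0.71 to 1.11), and NOD mouse DD675 had -1.38 for Gabra4 (-0.91 to -0.50).

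Among list means, B6 mouse BB685 had 1.05 for monoamine neurons against 1.57 to 1.91 in the other B6 mice, B6 mouse BB701 had 2.22 for the cerebellum (0.44 to 1.17), and B6 mouse BB707 had 1.1 for meninges and fibroblasts (0.19 to 0.51). NOD mouse DD678 had -0.14 for oligodendrocyte precursors (0.04 to 0.20) and 0.27 for astrocytes (0.55 to 0.78). The calls of Pkd2l1, Col12a1, Wdhd1, Frmd3 and Mup6 held without any 1 of the 16 mice, and that of Gabra4 was lost without any of 9.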

How the results depend on the processing

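The alternatives gave 1379 values for 42 of the named genes. Tcf7l2, Lef1, Ntng1 and Ptpn3 were not among the 42. No value changed sign, and 300 lost the call. Most losses came with the 1.0ST arrays, 1 treatment alone, or marker lists as covariates, and 98 came with 1 mouse left out. Among 289 called clusters, 133 of opposite strain signs and 21 of these with both regions called, the counts were 137, 61 and 15 on the 1.0ST arrays, 96, 53 and 6 in vehicle mice, and 15, 2 and 0 in clozapine mice (4 mice per strain each). With the mouse as a random replicate block on 32 arrays they were 355, 173 and 13, and with no replicate block 255, 108 and 14. With 5 surrogate variables, treatment and the random replicate block on 48 arrays they were 730, 395 and 46. At an unadjusted p below 0.002 they were 461, 236 and 7. Leaving out 1 mouse gave 200 to 320, 82 (without BB687) to 157, and 11 (without DD657) to 23, the last also falling to 13 without BB687 or BB708. Alternatives chosen after seeing the data gave 65 and 25 with the thalamus list as a covariate, 17 and 4 with both lists, and 12 with both regions called when the 4 mice with cerebellar signal were left out. Members called over all lists numbered 21, and 11 on the 1.0ST arrays, and thalamic members 8 and 4. The within-mouse distance, 0.83 higher in NOD, was -0.10 on the 1.0ST arrays, -1.60 in vehicle mice and 3.26 in clozapine mice (exact permutation p = 0.929, 0.257 and 0.2), and 0.29 (without DD676) to 1.43 (without BB701) when 1 mouse was left out. Calls near the threshold were fragile. Of the 42 genes, Six3, Hoxa4, Idi1, Mir218-2, Gdap10, Stard4, Pla2g4e, Gabra4, Ifih1 and Tafa4 lost theirs when any of 2 to 13 mice was left out. The causes of these changes were not tested.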
